A study of Mus musculus with 28 samples.

Results

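Open chromatin was followed at 4 mouse loci that mark epithelial cells: the E-cadherin gene Cdh1, the cell adhesion gene Epcam, and the clusters Mir200b and Mir200c that encode the miR-200 microRNAs. The members were all ATAC-seq peaks that overlapped a fixed window around each locus in the mm9 mouse genome, with overlapping peaks merged into regions over all libraries. The windows were chr8:109080000-109250000 for Cdh1, chr17:88000000-88090000 for Epcam, chr4:155400000-155455000 for the Mir200b cluster and chr6:124640000-124700000 for the Mir200c cluster. They held 72 of the 172177 merged regions of the series, of which 38 lay in the Cdh1 window, 14 in the Epcam window, 10 in the Mir200b window and 10 in the Mir200c window. A region was called by at least 2 libraries in 52 of these 72 cases, against 109954 regions in the whole series, and the 52 are named by their window and a letter in order of position. The other 20 regions were called by 1 library each, which was a MEF library for 2 of them, a day 5 library for 5 and a day 10 library for 13.

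The libraries came from mouse embryonic fibroblasts (MEFs) of the V6.5 129XBI/6 background, taken at embryonic day 12.5, and sampled during reprogramming towards induced pluripotent stem cells. Day 5 and day 10 cells had been transduced with a pMXs retrovirus that carried Tet2-E, which the series describes as a stalling mutant of the DNA demethylase Tet2, wild-type Tet2 (Tet2-WT) or no insert (empty vector). They were kept on feeder cells, themselves Mito-C-treated MEFs, with LIF, PD0325901, CHIR99021 and doxycycline, which switched on the OKSM factors, and were sorted on SSEA1-RFP. The MEFs were untreated and unsorted, and per the labels' protocols all cells lacked Tet2 (Tet2-/-) and carried OKSM and rtTA, so that the empty vector arm received no Tet2. Each of the 7 groups (MEF, and 3 vectors at each of the 2 days) had 4 libraries. Nothing in the labels says that the 4 came from separate cultures or embryos, so the p-values measure the spread between libraries, which may be technical. Day 5 and day 10 cells differed from MEFs in transduction, medium, feeders, sorting and time at once, and these cannot be told apart. In these bulk samples, a site open in fewer cells and a site less open in each cell also cannot be told apart.

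E-cadherin joins neighbouring epithelial cells through calcium-dependent contacts, and EpCAM is a membrane adhesion protein of epithelial and embryonic stem cells. Fibroblasts express little of either, and a switch from a mesenchymal to an epithelial state is a known early step when fibroblasts are reprogrammed. The miR-200 microRNAs repress Zeb1 and Zeb2, transcription factors that bind E-box motifs and in turn repress Cdh1, Epcam and both microRNA clusters.

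The 2 clusters make 5 mature microRNAs of the 3p arm, shown here because both windows give rise to the same pair of seeds; capitals mark the seed, bases 2 to 8 (sequences from RefSeq, GRCm38.p6).
mmu-miR-200b-3p: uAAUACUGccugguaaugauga
mmu-miR-200c-3p: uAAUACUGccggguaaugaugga
mmu-miR-429-3p: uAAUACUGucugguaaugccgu
mmu-miR-200a-3p: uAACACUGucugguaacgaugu
mmu-miR-141-3p: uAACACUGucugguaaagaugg
The seed AAUACUG was shared by 3 of them and AACACUG by the other 2, and the seeds differed by 1 base. The Mir200b cluster encodes miR-200b, miR-200a and miR-429, and the Mir200c cluster encodes miR-200c and miR-141, so each seed is made from both chromosomes.

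The RefSeq promoter of Epcam, from 250 bases before to 50 bases after the gene start, is shown because the Epcam window gained peaks; it lies at chr17:87635729-87636028 on the plus strand of GRCm38.p6, a build whose positions cannot be set beside those of the peaks. Capitals mark matches to the E-box CAGGTG or its reverse complement CACCTG, and to the KLF motif CCACCC.
Epcam promoter: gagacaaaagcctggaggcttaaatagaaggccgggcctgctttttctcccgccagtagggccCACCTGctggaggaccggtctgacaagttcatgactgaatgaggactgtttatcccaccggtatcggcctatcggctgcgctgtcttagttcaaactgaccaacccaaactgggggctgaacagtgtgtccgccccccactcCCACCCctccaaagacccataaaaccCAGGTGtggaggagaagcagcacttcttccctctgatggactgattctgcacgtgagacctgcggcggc
The 300 bases held 11 CpG dinucleotides and 57.0% G or C. An E-box began 187 bases before the gene start and another 19 bases before it, and the KLF motif began 45 bases before it. Of 32851 promoters of the same length, 20.21% held at least 1 E-box on either strand, 2.88% held at least 2, and 31.48% held the KLF motif. The octamer ATGCAAAT of Pou5f1 and the AP-1 motif TGANTCA were searched on both strands and had no match in these letters, against 1.735% and 7.808% of all promoters with a match. A match to letters is a description and not a bound site.

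The deposited lists held 27918 to 72332 peaks per library. They hold no read totals; the background pileup behind the authors' p-values, which scales with depth, was 0.39 to 0.66 reads in the 4 MEF libraries, 0.75 to 1.04 in the 12 day 5 libraries and 0.36 to 0.77 in the 12 day 10 libraries. The median peak width of a library averaged 194.5 ± 11.3 bp over the 4 MEF libraries, 164.8 ± 10.9 bp over the 12 of day 5 and 148.4 ± 12.3 bp over the 12 of day 10 (mean ± SD). Depth and width thus moved with the day, and their part in the results below was not tested, apart from the values given with equal numbers of peaks. No mm9 annotation was used here, so regions are given by mm9 position and not placed in a promoter, exon or intron, and other epithelial genes and the marker genes of fibroblasts and pluripotent cells were not analysed here.

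The number of peaks per library was set out first, by window and day. The 170 kb Cdh1 window held 8.75 ± 2.06 peaks in MEF libraries (n = 4), 12.2 ± 1.91 in day 5 libraries (n = 12) and 13.8 ± 2.59 in day 10 libraries (n = 12; mean ± SD). The 90 kb Epcam window held 2.25 ± 0.50 peaks in MEFs, 4.67 ± 1.30 at day 5 and 6.50 ± 2.15 at day 10. The 4 MEF libraries had 2 or 3 peaks there, the day 5 libraries 3 to 7 and the day 10 libraries 4 to 12. Other windows of the genome were not counted in this way. A region split into 2 or more peaks counts more than once, as Epcam-A did in 8 of 12 day 10 libraries. The 55 kb Mir200b window held 2.75 ± 0.96, 4.08 ± 1.31 and 3.17 ± 0.83 peaks, and the 60 kb Mir200c window 4.50 ± 0.58, 5.00 ± 0.95 and 4.50 ± 1.09, in MEF, day 5 and day 10 libraries in that order. These counts were not tested. The length covered by peaks in the Cdh1 window was 2672 ± 719 bp in MEFs, 3076 ± 319 bp at day 5 and 2890 ± 811 bp at day 10. In the Epcam window it was 703 ± 180 bp in MEFs, 1547 ± 297 bp at day 5 and 1452 ± 468 bp at day 10. In the Mir200c window it was 1564 ± 308 bp, 1236 ± 163 bp and 1080 ± 289 bp in the same order.

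**Figure D1:**
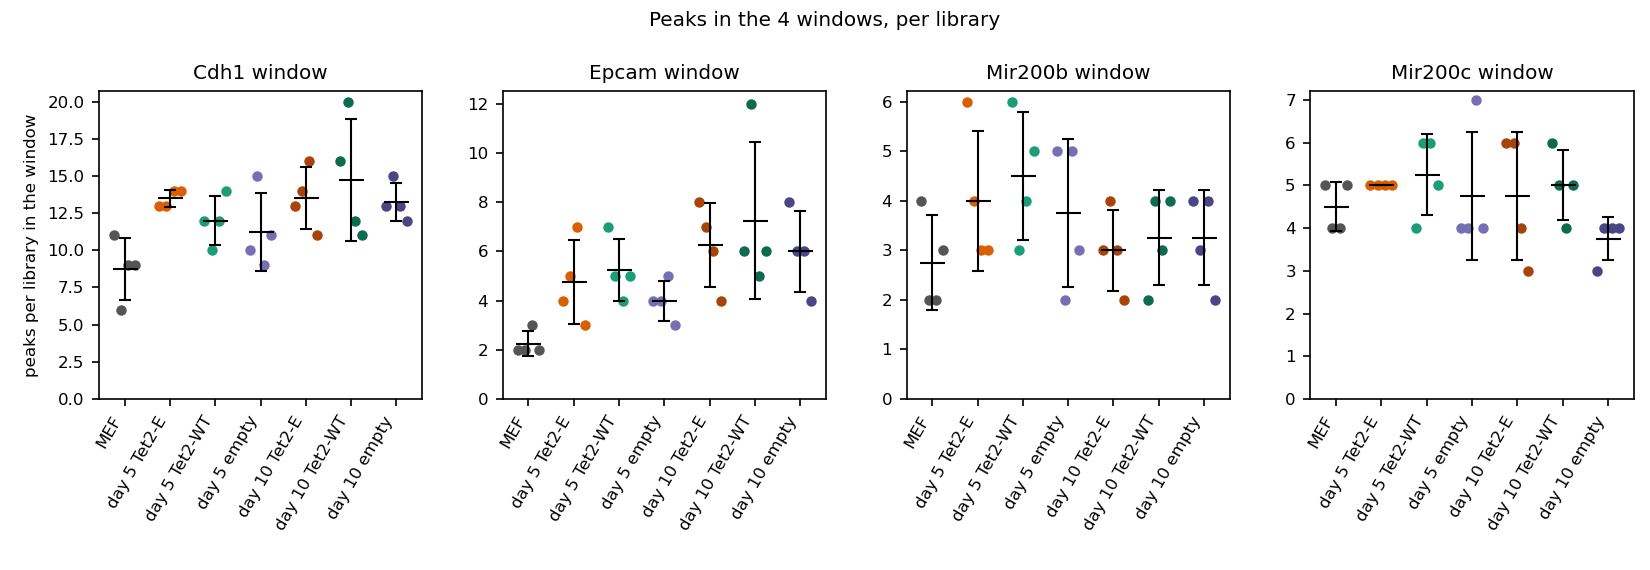
Peaks per library in each of the 4 windows (y axis, number of peaks) for the 7 groups on the x axis; each point is 1 library, and the bar with whiskers is the mean ± SD of 4 libraries. The MEF libraries have 2 or 3 peaks in the Epcam window, and the day 10 libraries have 4 to 12.

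Day 5 was then compared with MEFs, which asks which sites opened or closed over the first days of reprogramming. Of the 39 member regions in at least 2 of the 16 libraries, 6 were called more often at day 5 than in MEFs and 4 less often (2-sided Fisher's exact test on the number of calling libraries, 12 against 4, Benjamini-Hochberg adjusted p under 0.05 over all 99090 regions). Over all regions the shares were 9.81% gained and 16.1% lost. The median difference in the share of calling libraries was 16.67 percentage points over the members and 0 over all regions. The gained regions were Cdh1-E, Cdh1-F, Cdh1-O, Cdh1-P, Epcam-A and Mir200b-D, and the lost ones were Cdh1-N, Cdh1-U, Cdh1-Y and Mir200c-A. Gains thus occurred in 3 of the windows, and the Mir200c window held a loss and no gain. By window, 4 of 20 tested regions were gained and 3 lost in Cdh1, 1 of 7 gained in Epcam, 1 of 5 gained in Mir200b and 1 of 7 lost in Mir200c.

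Day 10 was compared with MEFs in the same way, and 7 of 41 member regions were gained and 5 lost, where 5.66% of the 89226 regions tested were gained and 22.6% lost. The median difference was 16.67 percentage points over the members and -8.33 over all regions. Gained were Cdh1-E, Cdh1-F, Cdh1-I, Cdh1-O, Epcam-A, Epcam-F and Mir200b-D. Lost were Cdh1-D, Cdh1-U, Cdh1-Y, Mir200b-C and Mir200c-A. By window, 4 of 20 tested regions were gained and 3 lost in Cdh1, 2 of 9 gained in Epcam, 1 of 5 gained and 1 lost in Mir200b, and 1 of 7 lost in Mir200c. Both comparisons use the same 4 MEF libraries.

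Over the 52 member regions, 3 were called by 0 of 4 MEF libraries and all 24 reprogramming libraries, against 1.81% of all regions with that pattern. A further 2 were called by all 4 MEF libraries and 0 of 24 reprogramming libraries, against 5.80% of all regions. All 28 libraries called 7 of the members, where the share over all regions was 7.04%. No MEF library called 32 of the 52 members, or 61.54%, against 40.94% of all regions.

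**Figure D2:**
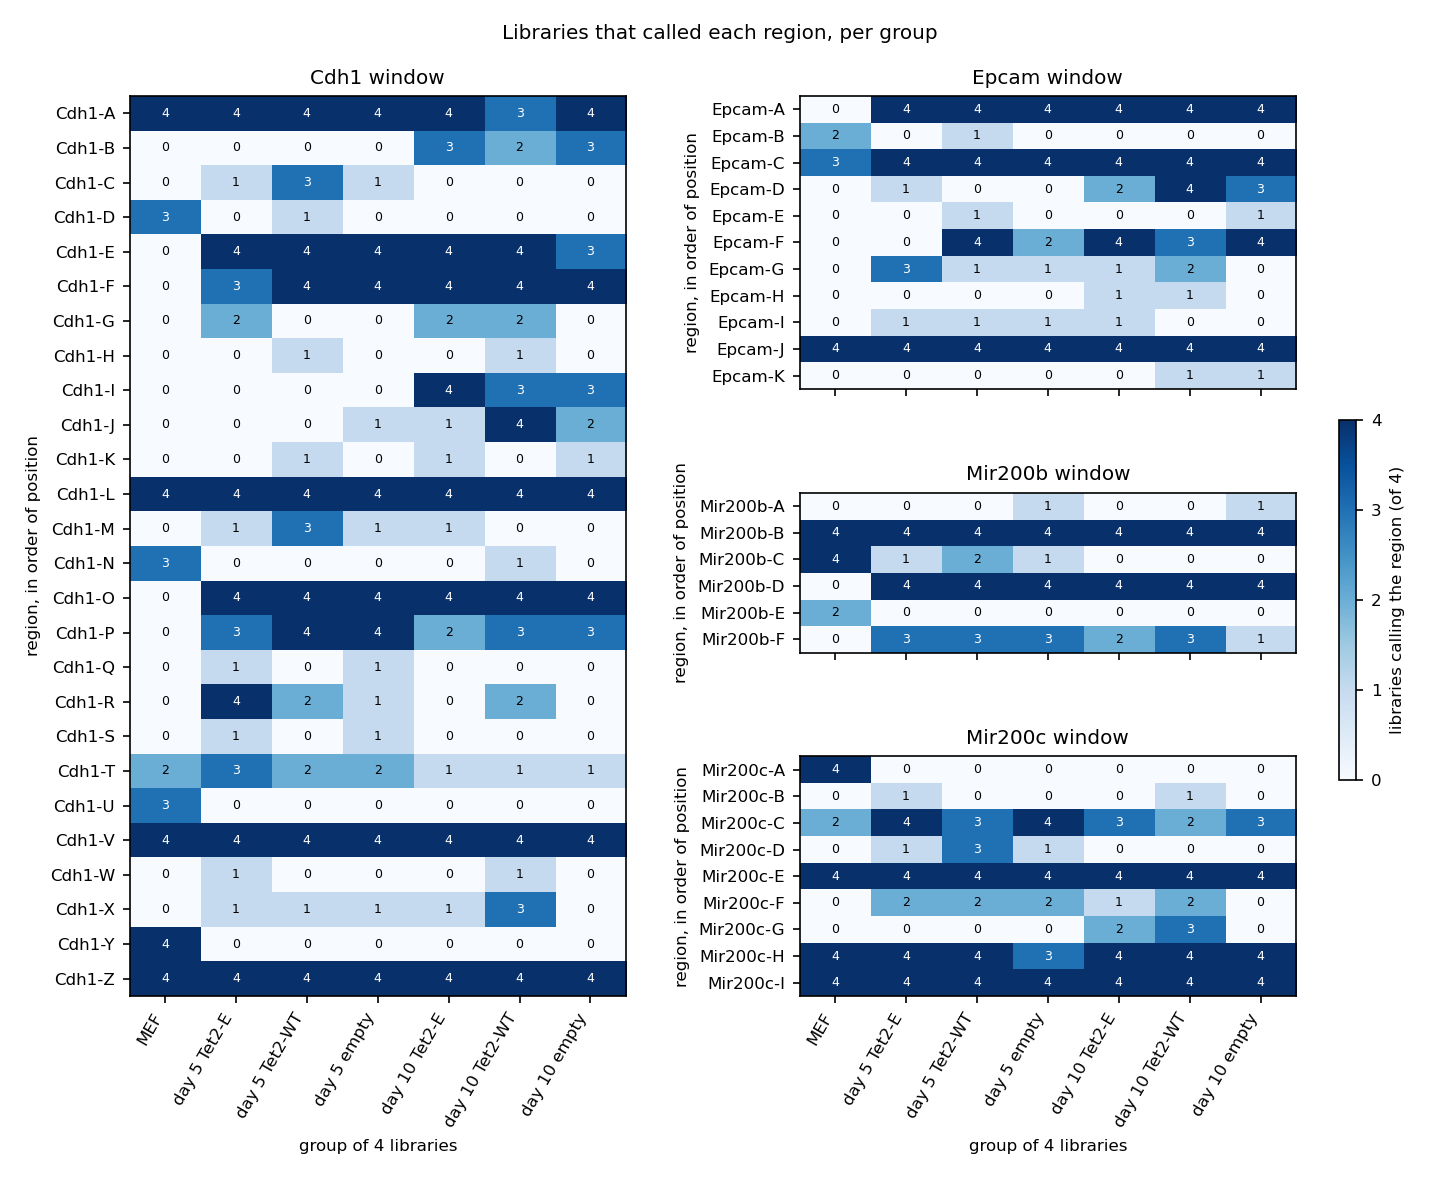
Number of libraries, of 4, that called each of the 52 regions (rows, in order of position within each window) in the 7 groups (columns); darker cells mean more libraries. Cdh1-O, Epcam-A and Mir200b-D read 0 in the MEF column and 4 in the other columns, and Cdh1-Y and Mir200c-A read 4 in the MEF column and 0 elsewhere.

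The Cdh1 window, which held 26 of the 52 regions, had 4 of the 6 gains at day 5 and 4 of the 7 at day 10, or 20% of its 20 tested regions each time. Cdh1-O, at chr8:109155452-109156088, was called by 12 of 12 day 5 libraries, against 0 of 4 MEF libraries (Fisher's exact test, adjusted p = 0.0045), and by 12 of 12 day 10 libraries (adjusted p = 0.0037 against the same MEFs). The authors' fold enrichment at Cdh1-O, a value of each library's own list that is not compared between libraries, was 5.86 to 10.4 at day 5 (median 8.25) and 5.62 to 8.65 at day 10 (median 7.41). Cdh1-P, at chr8:109156172-109156905, lay 83 bp further on and was called by 11 of 12 day 5 libraries and 0 of 4 MEF libraries (exact test, adjusted p = 0.016). At day 10 it was called by 8 of 12 libraries, a difference from MEFs that did not pass (exact test, adjusted p = 0.17). At day 10 Cdh1-O was in every library, and Cdh1-P in 2 of 4 Tet2-E, 3 of 4 Tet2-WT and 3 of 4 empty vector libraries.

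Cdh1-E and Cdh1-F formed a second gained pair, 3159 bp apart and with Cdh1-F 27.99 kb below Cdh1-O. Cdh1-E, at chr8:109123492-109123906, was called by 12 of 12 day 5 libraries, 11 of 12 day 10 libraries and 0 of 4 MEF libraries (adjusted p = 0.0045 for day 5 and 0.016 for day 10, Fisher's exact test). The day 10 library without it was empty vector replicate 1. Cdh1-F, at chr8:109127066-109127459, was called by 11 of 12 day 5 libraries, 12 of 12 day 10 libraries and 0 of 4 MEF libraries (exact test, adjusted p = 0.016 and 0.0037). The day 5 library without it was Tet2-E replicate 3. The fold at Cdh1-F was 3.55 to 7.49 at day 5 (median 6.42) and 5.58 to 10.6 at day 10 (median 7.77), with a summit pileup of 14 to 27 reads at day 5 and 17 to 33 at day 10.

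Cdh1-I was the 1 member that passed the test between the days. This region, at chr8:109134839-109135140 and 7379 bp above Cdh1-F, was called by 10 of 12 day 10 libraries, 0 of 12 day 5 libraries and 0 of 4 MEF libraries. At day 10 the calls came from 4 of 4 Tet2-E, 3 of 4 Tet2-WT and 3 of 4 empty vector libraries, with the authors' fold at 7.79, 6.14, 5.95 and 8.58 in Tet2-E, 7.39, 5.18 and 8.48 in Tet2-WT, and 7.32, 9.53 and 5.64 in empty vector libraries. Day 10 against day 5, tested within vectors, gave p = 0.00015 and an adjusted p of 0.021 (exact conditional test stratified by vector, 2-sided). It was the only gain among the 45 member regions tested in that comparison, and 0 were lost, against 0.144% gained and 1.00% lost of all 83195 regions. An unadjusted p under 0.05 was held by 7 of the 45 members and by 10165 of the 83195 regions. The pattern of 0 MEF, 0 day 5 and at least 10 of 12 day 10 libraries was held by 0.0482% of all regions. That pattern follows the counts of Cdh1-I itself, so the share is a description and no test. The day 10 against day 5 call held with each of the 24 libraries left out in turn. It was lost without replicate 1, 2, 3 or 4 of every group (exact test, adjusted p between 0.16 and 0.23), with lists of equal length (adjusted p = 0.059) and with replicates 1 and 2 against 3 and 4 as strata (adjusted p = 0.054). The day 10 against MEF difference had an adjusted p of 0.029, which became 0.084 without MEF replicate 1, 0.074 without replicate 2, 0.079 without replicate 3 and 0.077 without replicate 4. The background pileup was highest in the day 5 libraries, and the part of depth in the Cdh1-I calls was not tested.

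Cdh1-B, at chr8:109087838-109088199 and outside the rule for named regions, was described after its counts were seen. It was called by 8 of 12 day 10 libraries, 0 of 12 day 5 libraries and 0 of 4 MEF libraries, and neither difference passed (exact test, adjusted p = 0.083 for day 10 against day 5 and 0.17 for day 10 against MEF). The day 10 against day 5 difference passed without day 10 Tet2-E replicate 4, Tet2-WT replicate 3, Tet2-WT replicate 4 or empty vector replicate 4, the day 10 libraries that did not call it. Leaving out such a library raises the day 10 share, so these fits give the difference no support. It did not pass with any other single library left out.

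Other Cdh1 regions were open in fibroblasts and lost. Cdh1-Y, at chr8:109225278-109225527, was called by 0 of 12 day 5, 0 of 12 day 10 and 4 of 4 MEF libraries (adjusted p = 0.0045 and 0.0037, Fisher's exact test), with a fold of 9.21, 6.17, 9.33 and 5.84 in MEF replicates 1 to 4. Cdh1-U, at chr8:109179895-109180249, was called by 0 of 24 reprogramming libraries and by MEF replicates 1, 3 and 4 (exact test, adjusted p = 0.031 and 0.028). Cdh1-N, at chr8:109150032-109150398, was called by 0 of 12 day 5 libraries, 1 of 12 day 10 libraries and 3 of 4 MEF libraries (exact test, adjusted p = 0.031 at day 5 and 0.086 at day 10). Cdh1-D, at chr8:109101050-109101451, was called by 1 of 12 day 5, 0 of 12 day 10 and 3 of 4 MEF libraries (exact test, adjusted p = 0.090 and 0.028). Cdh1-D, Cdh1-N and Cdh1-U were all missing from MEF replicate 2, the shortest of the MEF lists. Their calls were lost without MEF replicate 1, 3 or 4, with adjusted p between 0.087 and 0.093 for Cdh1-N and Cdh1-U at day 5 and between 0.077 and 0.084 for Cdh1-D and Cdh1-U at day 10.

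Lost and gained regions interleaved at day 5 alone, where the lost Cdh1-N lay between the gained Cdh1-F and Cdh1-O. At day 10 Cdh1-D lay below all gained regions, and Cdh1-U and Cdh1-Y lay above them. Cdh1-N lay 5053 bp from Cdh1-O, and Cdh1-D lay 22.04 kb from Cdh1-E. The calls of Cdh1-N and Cdh1-D each depended on single MEF libraries, as given above, so this order along the window does too.

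The Cdh1 window also held regions called in MEFs and at both days. Cdh1-L, at chr8:109143391-109143895, Cdh1-V, at chr8:109206795-109207560, and Cdh1-Z, at chr8:109241961-109242485, were called by all 28 libraries. Cdh1-A, at chr8:109085040-109085674, was called by 27 and missed by day 10 Tet2-WT replicate 3. Cdh1-Z had the highest folds of the members within MEF lists, 21.0, 20.2, 15.8 and 21.9 in MEF replicates 1 to 4, which placed it in the top 0.055% to 2.03% of those lists. In the reprogramming lists its fold was 5.79 to 9.18 at day 5 (median 8.15) and 5.42 to 9.70 at day 10 (median 7.08), and its place ran from the top 11.9% to the top 74.8%. Its summit pileup was 41 to 56 reads in MEFs, 10 to 18 at day 5 and 9 to 18 at day 10. The calls of Cdh1-Z were thus constant while these values were not, and a change in height was not tested. Lists of different length give no test of such a change. Cdh1-V was split into 2 or more peaks in 7 of 12 day 5, 10 of 12 day 10 and 1 of 4 MEF libraries.

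**Figure D3:**
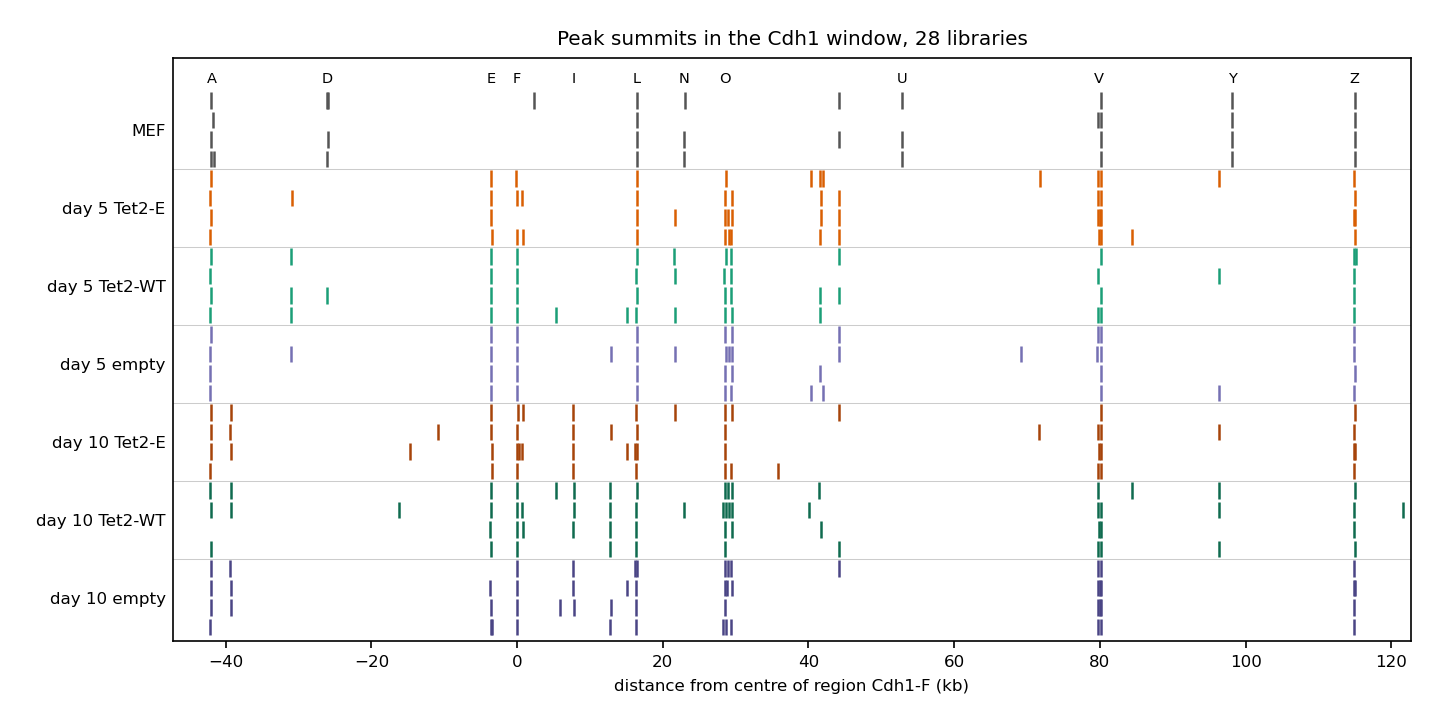
Peak summits in the Cdh1 window (x axis, distance in kb from the centre of Cdh1-F). Each row is 1 library, 4 rows per group, and each tick is 1 peak. Named regions are lettered at the top, except Cdh1-P, which lies beside Cdh1-O. Columns of ticks at E, F and O are empty in the 4 MEF rows, the column at I is filled in day 10 rows only, and the column at Y in MEF rows only.

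The Epcam window had 1 gain among 7 tested regions at day 5 and 2 among 9 at day 10, and no loss. Over all regions, 9.81% were gained and 16.1% lost at day 5, and 5.66% and 22.6% at day 10. With so few regions tested, no conclusion is drawn from the lack of losses. Epcam-A, at chr17:88002117-88003026, was called by 12 of 12 day 5, 12 of 12 day 10 and 0 of 4 MEF libraries (adjusted p = 0.0045 and 0.0037, Fisher's exact test). Its fold was 6.87 to 12.4 at day 5 (median 8.47) and 6.27 to 9.64 at day 10 (median 7.53). It was a single peak in most day 5 libraries, with 2 or more peaks in 1 of 12, and was split in 8 of 12 day 10 libraries.

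Epcam-F, at chr17:88035712-88036315, was called by 11 of 12 day 10 libraries and 0 of 4 MEF libraries (exact test, adjusted p = 0.016). At day 5 it was called by 0 of 4 Tet2-E, 4 of 4 Tet2-WT and 2 of 4 empty vector libraries, a difference from the MEFs that did not pass (exact test, adjusted p = 0.45). It was the only 1 of 30 members with 0 of 4 Tet2-E against 4 of 4 Tet2-WT libraries at day 5, a pattern that 0.184% of 61900 regions had. Over both days and all pairs of vectors, Epcam-F was the 1 of 40 members with such a complete split in either direction, against 0.934% of 78732 regions. At day 10 the same vectors had 4 of 4 Tet2-E and 3 of 4 Tet2-WT libraries. Tested over both days, Tet2-E against Tet2-WT gave p = 0.26 and an adjusted p of 1 (exact conditional test stratified by day). Where Epcam-F was called, its fold was low at both days. At day 5 it was 4.98 to 5.21 in the Tet2-WT and 4.83 and 5.61 in the empty vector libraries. At day 10 it was 4.08 to 6.78 (median 5.69).

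Next to it, Epcam-D, at chr17:88035049-88035356 and outside that rule too, was also described after its counts were seen. It was called by 9 of 12 day 10 libraries, 1 of 12 day 5 libraries and 0 of 4 MEF libraries, and neither difference passed (exact test, adjusted p = 0.12 for day 10 against day 5 and 0.063 for day 10 against MEF).

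Both other named Epcam regions were open in fibroblasts. Epcam-J, at chr17:88071469-88072297, was called by all 28 libraries, with a fold of 9.98 to 12.6 at day 5, 8.58 to 14.2 at day 10 and 7.99 to 13.1 in MEFs. Its median fold over all libraries, 11.2, was the highest of the Epcam window. Epcam-C, at chr17:88012582-88013098, was called by 24 of 24 reprogramming libraries and 3 of 4 MEF libraries, with MEF replicate 2 the exception.

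The Mir200b window held 1 gain among 5 tested regions at each day, and 1 loss at day 10 alone, beside the same shares over all regions. Mir200b-D, at chr4:155433388-155434255, was called by 12 of 12 day 5, 12 of 12 day 10 and 0 of 4 MEF libraries (adjusted p = 0.0045 and 0.0037, Fisher's exact test). Its fold was 5.46 to 8.92 at day 5 (median 6.41) and 6.58 to 9.52 at day 10 (median 7.98), and its summit pileup 14 to 27 and 17 to 35 reads. Many libraries called 2 peaks inside this region of 868 bp, 9 of 12 at day 5 and 5 of 12 at day 10.

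Mir200b-C, at chr4:155406130-155406582, had fewer calls at each later time. It was called by 4 of 4 MEF libraries, 4 of 12 day 5 libraries and 0 of 12 day 10 libraries. The day 5 calls were 1 of 4 Tet2-E, 2 of 4 Tet2-WT and 1 of 4 empty vector libraries. The loss passed at day 10 (Fisher's exact test, adjusted p = 0.0037) and not at day 5 (adjusted p = 0.18). The difference between the days did not pass (adjusted p = 0.57, exact conditional test stratified by vector). With lists of equal length, Mir200b-C was called by too few libraries to be tested at day 10. At a distance of 36 bp, Mir200b-B, at chr4:155405560-155406093, was called by all 28 libraries. Mir200b-F, at chr4:155451748-155452165 and also outside the rule, was called by 9 of 12 day 5, 6 of 12 day 10 and 0 of 4 MEF libraries (exact test, adjusted p = 0.068 at day 5 and 0.43 at day 10).

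The Mir200c window was the 1 window with no gained region in any comparison of the full lists. Only 7 of its regions were tested against MEFs at each day, where 9.81% of all regions were gained at day 5 and 5.66% at day 10. Mir200c-A, at chr6:124650246-124650724, was called by 0 of 24 reprogramming libraries and 4 of 4 MEF libraries (adjusted p = 0.0045 at day 5 and 0.0037 at day 10, Fisher's exact test), with a fold of 9.24, 8.08, 8.55 and 8.33 in MEF replicates 1 to 4. Mir200c-E, at chr6:124661817-124662769, and Mir200c-I, at chr6:124695429-124695995, were called by all 28 libraries. Mir200c-H, at chr6:124691424-124691701, was called by 27, with day 5 empty vector replicate 4 the exception. The median fold at Mir200c-E was 9.06 at day 5, 9.50 at day 10 and 9.32 in MEFs. Whether the Mir200c window differed from the other windows was not tested.

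**Figure D4:**
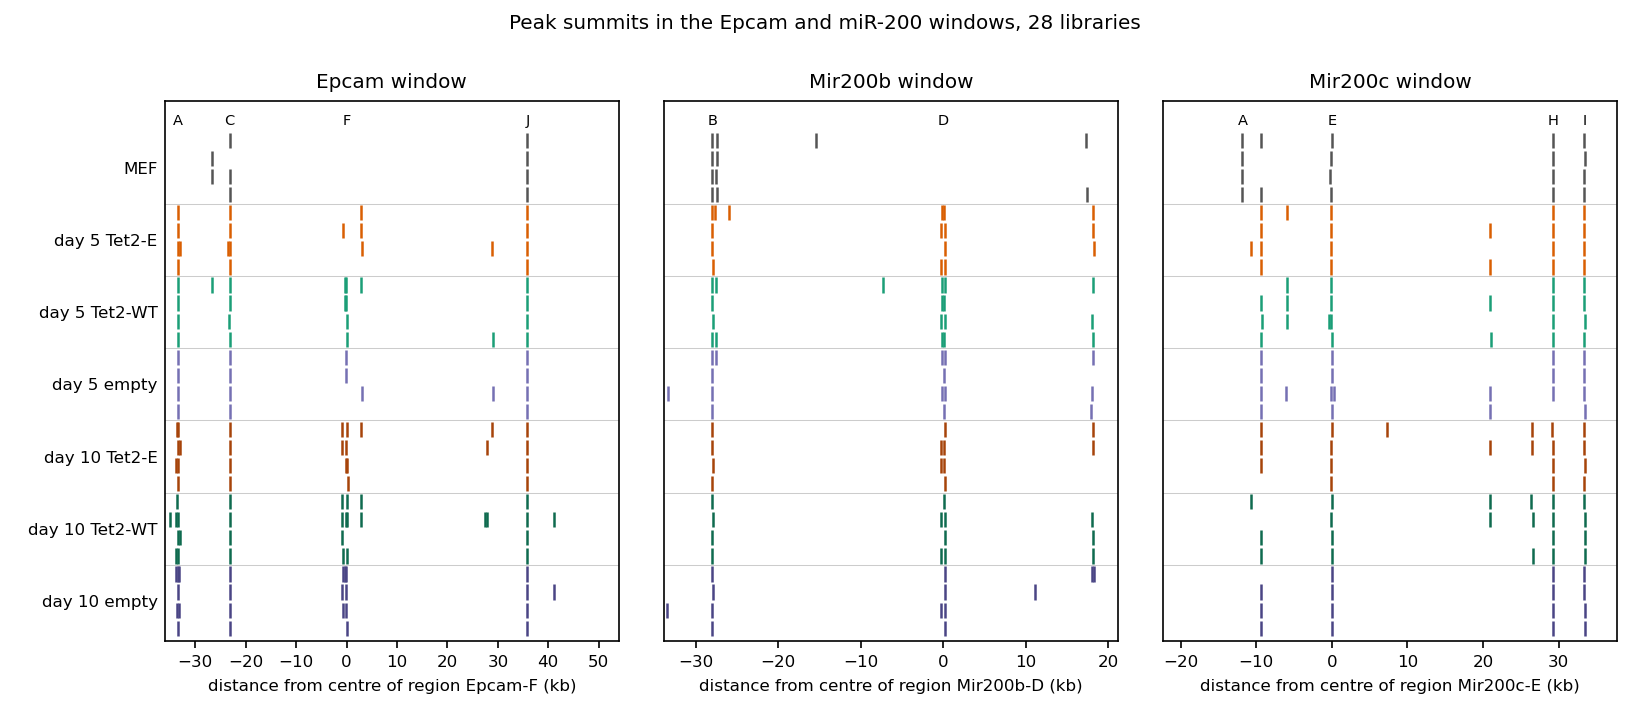
Peak summits in the Epcam, Mir200b and Mir200c windows (x axis, distance in kb from the centre of Epcam-F, Mir200b-D and Mir200c-E); each row is 1 library, 4 rows per group, and each tick is 1 peak. Epcam A and Mir200b D are empty in the 4 MEF rows and filled in the 24 others, and Mir200c A is filled in MEF rows only.

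No member passed a test between vectors. Within days, Tet2-WT against empty vector was tested for 40 members, Tet2-E against empty vector for 39 and Tet2-E against Tet2-WT for 40, and 0 passed in each, against a background of 0% of all regions (exact conditional test stratified by day, 8 against 8 libraries). At an unadjusted p under 0.05 there were 0 members in each of the 3 comparisons. Over all regions there were 525 of 74168, 340 of 71000 and 404 of 73329 in the same order. With shares that small, 0 members is near the background. The smallest unadjusted p among the members was 0.14, 0.092 and 0.14, and every adjusted p was 1. A p that misses the threshold does not show that the vectors acted alike. The 3 regions called by all 24 reprogramming libraries include the 8 empty vector libraries by that definition, so they are no test of Tet2.

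The 28 regions outside the rule for named regions were called by 2 to 21 libraries each (median 5), spanned 102 to 418 bp and had a median authors' fold of 4.40 to 7.84. Of these, 24 were called by 0 of 4 MEF libraries. Among all 52 members, 23 were called by no MEF library and at both days, 4 by no MEF library and at day 5 alone, and 5 by no MEF library and at day 10 alone, shares of 44.23%, 7.69% and 9.62%, against 29.13%, 8.04% and 3.77% of all regions.

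The lists were also shortened to one length, the 27809 peaks with the highest authors' −log10 p in each, and then 5 of the 6 gains at day 5 and 4 of the 7 gains at day 10 still passed. Cdh1-F, Cdh1-O, Epcam-A and Mir200b-D passed at both days under that setting, and so did the loss of Mir200c-A. Mir200c-C, called in the full lists by 11 of 12 day 5 and 2 of 4 MEF libraries, passed as a day 5 gain under it and not otherwise. The loss of Cdh1-Y did not pass (exact test, adjusted p = 0.13 at day 5 and 0.14 at day 10), with a difference of -50.00 percentage points at both days. Other losses were then called by too few libraries to be tested, Cdh1-N and Cdh1-U at day 5 and Cdh1-D, Cdh1-U and Mir200b-C at day 10. Peaks that had to cover at least 50% of a region left the gains of Cdh1-F and Mir200b-D short of the threshold at day 5. Cdh1-P and Cdh1-N were then called by too few libraries to be tested at day 5. At day 10 the gains of Cdh1-E, Cdh1-I, Epcam-A and Epcam-F and the loss of Cdh1-D fell short of the threshold. Under this setting Cdh1-A passed as a loss at both days, Mir200b-C at day 5 and Mir200b-B at day 10. With peaks of a −log10 q of at least 5 alone, Cdh1-P and Cdh1-U did not pass at day 5, and Cdh1-N was called by too few libraries to be tested. At day 10 Cdh1-E, Cdh1-U and Epcam-F did not pass under that setting. Cdh1-O and Mir200c-A passed at both days under every setting and with each library left out.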

How the data were processed

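Per the submitters' processing notes, Bowtie2, SAMtools, bedtools and MACS2 were used with the mm9 build; the sources used here do not give their versions, order or settings, or whether reads were shifted for Tn5. The authors deposited 1 peak list per library, with 4 values per peak: a score, a fold enrichment, −log10 of the p-value and −log10 of the q-value. In each list the deposited score was 10 times the −log10 q-value, and the lowest −log10 q-value was just above 2. Depth is not stated; the background pileup was solved per library from the deposited fold and p-values, and every summit pileup came out whole (tolerance 0.001 in −log10 p). Peaks of 28 libraries on 20 chromosomes were merged where they shared at least 1 bp, and a library called a region when a peak of it overlapped by at least 1 bp. Regions in at least 2 compared libraries were tested and adjusted by Benjamini-Hochberg over all of them (threshold 0.05), with Python 3.11.15, numpy 2.4.6, pandas 2.3.3 and scipy 1.17.1; the tests were tried on simulated data. Vector comparisons within 1 day were counted without a test, since 4 against 4 libraries cannot pass over all regions. Regions were named with their values when they passed in any comparison, were called by at least 24 libraries or had the highest median fold of their window. Windows, motifs and the rule for names were chosen with earlier results of these data known.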

Additional observations from a re-analysis of the deposited data

Results flagged for a closer look

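Of 55 sets of 4 libraries examined for peaks and covered length per window, 8 had a library that stood apart from the other 3; chance gives about 1 in 20. In the Cdh1 window the covered length was 2548 bp in day 5 empty vector replicate 1 and 2184 bp in day 10 empty vector replicate 4. In the Epcam window, day 10 Tet2-WT replicate 2 had 12 peaks, MEF replicate 3 had 3 peaks, and day 5 Tet2-WT replicate 1 had a covered length of 2193 bp. In the Mir200c window, day 5 empty vector replicate 3 had 7 peaks, day 10 empty vector replicate 1 had 3 peaks, and MEF replicate 1 had a covered length of 2023 bp. The counts of peaks differ by few units within a group, so a difference of 1 peak can set a library apart.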

How the results depend on the processing

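Counts of gained and lost members moved by over 1.5 times as follows. When peaks had to cover at least 50% of a region, the gains were 3 at day 5 and 3 at day 10 against MEF, and day 10 against day 5 had 1 loss, Cdh1-E. With equal numbers of peaks the losses were 1 at day 5 and 1 at day 10, the day 10 gains 4, and the day 10 against day 5 gain 0. With regions in at least 4 compared libraries, 2 and 3 losses were left, since regions of 3 MEF libraries alone were then not tested. With the replicate number as a block, 2 losses at day 5 and 3 at day 10 remained past the threshold and the day 10 against day 5 gain was 0 (Cdh1-I, exact test, adjusted p = 0.24); with replicates 1 and 2 against 3 and 4 as strata it was also 0 (adjusted p = 0.054). The block changed no vector result. Same-numbered libraries of different groups correlated at r from -0.02 to 0.09 in their deviations from group means, all under the 0.1 needed here to treat them as pairs. Even so, 17 of 28 libraries correlated best with their own number, where 7 would by chance, a hint from the data and not from the design. Without 1 replicate of every group, the gains ranged from 4 to 5 at day 5 and 4 to 5 at day 10, the losses from 2 to 4 and 3 to 6, and the day 10 against day 5 gain was 0 in each. Without 1 library at a time, the gains ranged from 6 to 7 and 6 to 8, the losses from 2 to 5 and 3 to 6, and the day 10 against day 5 gains from 1 to 2. Vector comparisons gave 0 members under every alternative, and no direction reversed. Requiring a summit inside the region gave the same calls by construction, since regions are unions of whole peaks. The causes were not tested. With 4 MEF libraries, a region called by 3 of them rests on each of those 3, and absence from a list is not closed chromatin.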
